A study of Oryza sativa with 6 samples.

Results

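The kaurene oxidase genes of the CYP701A family were followed in rice seedlings whose OsUBA level had been manipulated: D35 (LOC4341347, also CYP701A6 or OsKO2) and CYP701A8 (LOC4341343, also OsKOL4). The members are all probe sets that the array annotation assigns to these 2 genes, which gave 3 of the 57194 probe sets that are not controls: 2 for D35, called the dimmer and the brighter here, and 1 for CYP701A8. Counted in genes, they are 2 of the 17905 genes that have a probe set of their own. All 3 passed the filter on low values (a log2 value of 5 or more on at least 2 of the 6 arrays), and 0 probe sets assigned to several genes include either of them. RNA of 4-leaf seedlings, grown at 28 °C without treatment, was measured on 1-colour Affymetrix rice arrays, 2 biological replicates in each of 3 groups: wild type (Oryza sativa cv. Nipponbare), OsUBA overexpression, and RNA interference (RNAi) against OsUBA. The labels give no promoter or number of lines for the transgenic plants and no transformed group without an OsUBA construct, so effects of OsUBA and of transformation cannot be told apart. The level of OsUBA itself was not analysed here.

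Kaurene oxidases are cytochrome P450 enzymes that oxidise diterpene hydrocarbons made from geranylgeranyl diphosphate in the plastid. In gibberellin synthesis CPS1 makes ent-copalyl diphosphate, KS1 turns it into ent-kaurene, the kaurene oxidase D35 carries that to ent-kaurenoic acid, and KAO leads on to the gibberellins, hormones of stem elongation; rice plants that lack D35 function are dwarf. Rice also carries a parallel defence branch, in which CPS2 makes the same ent-copalyl diphosphate and kaurene synthase-like (KSL) enzymes turn it into precursors of antimicrobial phytoalexins. CYP701A8 hydroxylates diterpenes of this defence branch and is not thought to act in gibberellin synthesis.

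Both genes lie on chromosome 6 in a row of 4 CYP701A genes, in the order CYP701A9, CYP701A8, OsKO1 (LOC112936021) and D35, with a single snoRNA gene between CYP701A9 and CYP701A8 and no annotated gene between the others (RefSeq assembly ASM3414082v1; the build behind the array is not given in the sources used here, so no positions are printed). The array annotation assigns no probe set to OsKO1, and the D35 entry carries the OsKO1 names as synonyms. Both D35 probe sets have the suffix _x_at, which marks probes that can match related sequences. The part of OsKO1 transcripts in the D35 values was not tested.

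D35, the gibberellin-branch gene, varied by less than 1 on the log2 scale in either probe set. In the dimmer one the log2 values were 8.12 and 8.35 in wild type, 7.83 and 8.37 in overexpression, and 8.35 and 8.04 in RNAi (replicates 1 and 2). The 3 groups overlapped, and the range over all 6 arrays was 0.55. In the brighter one the values, over a range of 0.96, were 8.99 and 9.47 in wild type, 8.53 and 8.54 in overexpression, and 8.85 and 8.51 in RNAi. Here both wild-type arrays lay above all 4 transgenic arrays, by at least 0.14, and overexpression and RNAi overlapped. Both probe sets had the same order of group means, wild type above RNAi above overexpression, with a gap between wild type and the other groups only in the brighter one. In the dimmer one these means were close together, at 8.23, 8.20 and 8.10. The 2 probe sets correlated at only r = 0.468 over the 6 arrays, and neither is known from these data to be the better measure of D35.

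CYP701A8, the defence-branch gene, covered a range of 4.01 on the log2 scale. Its values were 9.17 and 8.20 in wild type, 6.99 and 7.69 in overexpression, and 9.56 and 11.00 in RNAi. Overexpression was lowest, wild type intermediate and RNAi highest, with no overlap between any 2 groups. The narrowest gap was 0.39, between wild-type replicate 1 and RNAi replicate 1, and the gap between overexpression and wild type was 0.52. Replicates of this gene were far apart: its pooled SD within groups was 0.76, while the median over kept probe sets within 0.5 of its mean level was 0.26. For the D35 probe sets the pooled SD was 0.27 and 0.24, against medians of 0.30 and 0.26. Of all 40466 kept probe sets, 4.71% had the order overexpression, wild type, RNAi without overlap and 4.42% the opposite order.

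**Figure D1:**
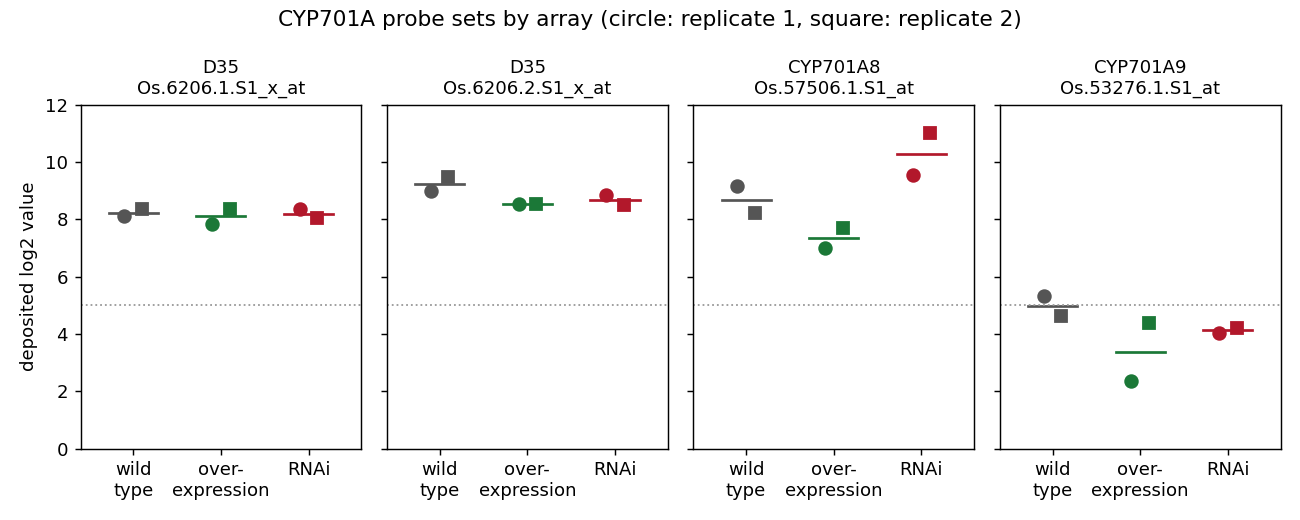
Deposited log2 values (vertical axis) of the D35, CYP701A8 and CYP701A9 probe sets in the 3 groups (horizontal axis), with a circle for replicate 1, a square for replicate 2, a bar for the group mean and a dotted line at the filter's log2 value of 5. The D35 values lie between 7.83 and 9.47, CYP701A8 runs from 6.99 in overexpression to 11.00 in RNAi, and CYP701A9 stays near or under the dotted line.

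CYP701A9 (LOC4341340), the remaining CYP701A gene of the row with a probe set, was added for comparison after the values had been seen. It did not pass the filter, with values of 5.34 and 4.64 in wild type, 2.37 and 4.40 in overexpression, and 4.04 and 4.21 in RNAi. No fold change is given for it.

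Between overexpression and wild type, the question was whether either branch gene changes when OsUBA is overexpressed. CYP701A8 had a group mean of 7.34 ± 0.49 in overexpression and 8.69 ± 0.68 in wild type (SD, n = 2), a 2.55-fold lower level (log2 change -1.35 ± 0.65; SEs after log2 changes are those without the trend unless stated) that did not pass in limma over all kept probe sets (adjusted p = 0.685). It did not pass either in the limma fit whose prior spread follows brightness, called the intensity-trend fit here (adjusted p = 0.479). D35 had log2 changes of -0.13 ± 0.30 in the dimmer and -0.70 ± 0.28 in the brighter probe set, with limma adjusted p values of 0.912 and 0.631 (0.909 and 0.459 with the trend). Without wild-type replicate 2 the second was -0.46, and with both probe sets averaged the D35 change was -0.42. The 95% intervals of the trend fit, not adjusted for the number of probe sets, ran from -2.56 to -0.13 for CYP701A8, from -0.82 to 0.55 and from -1.30 to -0.10 for D35. Groups did not overlap in 2 of the 3 member probe sets, a feature shared by 41.7% of kept probe sets, and 0 of the 3 were called, where limma called 0% of all kept probe sets without and 0.356% with the trend. Before adjustment 0 of the 3 had p under 0.05 without the trend, against 8.16% of kept probe sets. In limma with the trend the brighter D35 probe set (unadjusted p = 0.0285) and CYP701A8 (0.0337) were under 0.05, as were 9.54% of kept probe sets.

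Between RNAi and wild type, the question was whether either gene changes when OsUBA is targeted. CYP701A8 averaged 10.28 ± 1.02 in RNAi against 8.69 ± 0.68 in wild type, 3.01-fold higher (log2 change 1.59 ± 0.65), and did not pass (limma adjusted p = 0.585, and 0.306 with the trend). Without RNAi replicate 1 that log2 change was 2.31 and without RNAi replicate 2 it was 0.87. D35 had log2 changes of -0.04 ± 0.30 and -0.55 ± 0.28 in its 2 probe sets (limma adjusted p = 0.980 and 0.652; 0.979 and 0.511 with the trend). The second was -0.31 without wild-type replicate 2, and the average of both probe sets gave -0.29. The first of these changed sign when arrays were quantile normalised (0.05) or centred on their medians (0.04). Unadjusted 95% intervals of the trend fit were 0.38 to 2.80 for CYP701A8 and -0.73 to 0.65 and -1.15 to 0.05 for D35. Of the 3 probe sets 2 did not overlap between these groups, against 40.9% of kept probe sets, and 0 were called, against 0.00247% without and 0.773% with the trend. Before adjustment 0 had p under 0.05 without the trend, against 9.19%. In limma with the trend CYP701A8 was under 0.05 (unadjusted p = 0.0168), as were 10.9% of kept probe sets, and neither D35 probe set was. This comparison and the one before share the wild-type arrays.

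Between overexpression and RNAi, which sets the opposite manipulations side by side, CYP701A8 was 7.67-fold lower in overexpression (log2 change -2.94). The SE was 0.65 without the trend, where it missed the threshold (limma adjusted p = 0.179), and 0.52 with it, where it passed (limma adjusted p = 0.0232). The lowest RNAi array stood 1.87 above the highest overexpression array. The 95% interval of the trend fit was -4.15 to -1.72. D35 did not pass, with log2 changes of -0.09 ± 0.30 and -0.15 ± 0.28 (limma adjusted p = 0.903 and 0.827, and 0.905 and 0.812 with the trend), and intervals of -0.78 to 0.59 and -0.75 to 0.45. Thus 1 of 3 member probe sets was called by the trend fit and did not overlap, where that fit called 4.26% of kept probe sets (0.954% lower in overexpression), the fit without the trend 0.0124%, and 51.4% did not overlap. Before adjustment 1 of 3 had p under 0.05 without the trend, against 14.7%. In limma with the trend only CYP701A8 was under 0.05 (unadjusted p = 0.000571), as were 18.5% of kept probe sets.

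The CYP701A8 call between overexpression and RNAi did not hold in every fit with 1 array left out. In limma with the trend, it passed when wild-type replicate 1 (adjusted p = 0.0488), wild-type replicate 2 (0.0475) or RNAi replicate 1 (0.0064) was dropped. It was lost on dropping overexpression replicate 1 (0.196), overexpression replicate 2 (0.0625) or RNAi replicate 2 (0.0827). The log2 change over these 6 fits stayed between -3.66 and -2.22. It was -3.29 without overexpression replicate 2 and -2.94 without either wild-type array. Each of these fits leaves 1 array in a group, so a lost call does not show that the call rested on the array left out.

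**Figure D2:**
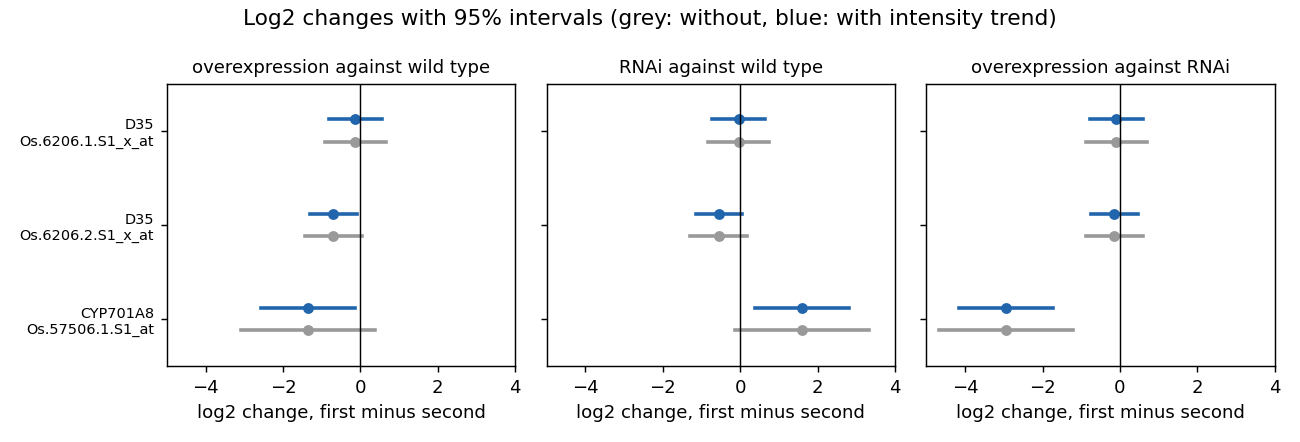
Log2 changes (horizontal axis, first group minus second) of the 3 member probe sets (vertical axis; dimmer D35, brighter D35 and CYP701A8 from the top) in the 3 comparisons, with 95% intervals that are not adjusted for the number of probe sets; grey is limma without and blue with the intensity trend. For CYP701A8 both intervals lie below 0 between overexpression and RNAi (-2.94), and the D35 intervals there include 0.

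Whether the 2 genes moved apart was asked through the difference log2 D35 minus log2 CYP701A8 within each array; its absolute value has no meaning, since the probe sets differ in affinity, and only its change between groups was compared. With the brighter D35 probe set the difference was -0.18 and 1.27 in wild type, 1.54 and 0.85 in overexpression, and -0.70 and -2.49 in RNAi. Both RNAi arrays lay below all other arrays, while overexpression and wild type overlapped. The change was 2.79 between overexpression and RNAi and -2.14 between RNAi and wild type, each with p = 0.333 in an exact two-sided permutation test, the smallest p that 2 against 2 arrays allow. The change between RNAi and wild type was -1.25 without RNAi replicate 2 and -1.42 without wild-type replicate 2. Between overexpression and wild type it was 0.65 (exact permutation p = 0.667), and -0.07 without wild-type replicate 1. Over all 3 groups the exact permutation p was 0.133, where 0.0667 is the smallest possible. With the dimmer D35 probe set the groups did not overlap in any pair, and the changes were 2.85, -1.63 and 1.22 in the same order (exact permutation p = 0.333 each, and 0.0667 over all 3 groups). The exact permutation test used here cannot pass the threshold with these group sizes, a limit of that test, and no other test of the difference was run. CYP701A8 ranged over 4.01 and the D35 probe sets over 0.55 and 0.96. The difference therefore mostly repeats the CYP701A8 values with the sign reversed and is not a separate result.

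**Figure D3:**
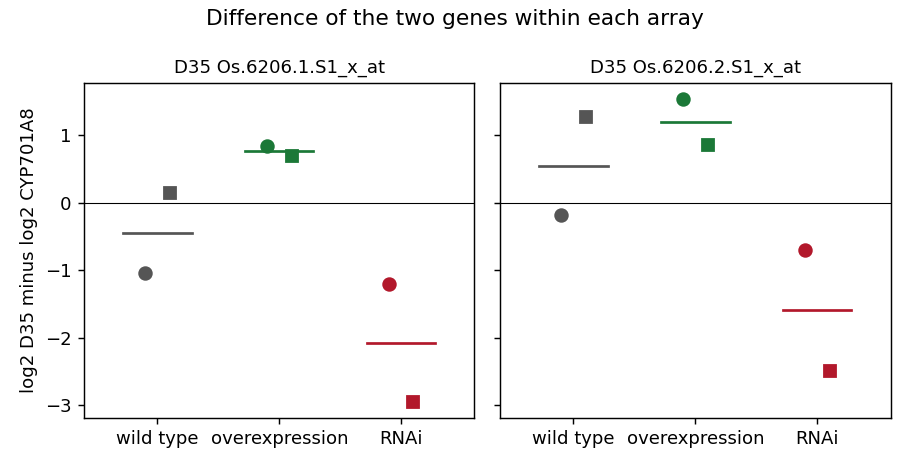
Log2 D35 minus log2 CYP701A8 within each array (vertical axis) by group (horizontal axis), with the dimmer D35 probe set on the left and the brighter on the right, with a circle for replicate 1, a square for replicate 2 and a bar for the mean. In both panels the RNAi arrays are lowest, at -1.20 and -2.96 on the left and -0.70 and -2.49 on the right.

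The other enzymes of gibberellin synthesis showed no call. CPS1 (LOC4329013), the entry enzyme, stood at 9.43 and 8.98 in wild type, 8.78 and 8.87 in overexpression, and 9.13 and 7.01 in RNAi, where the low mean came from replicate 2. KS1 (LOC4336960), which makes the substrate of D35, varied little: 10.96 and 10.84, then 10.65 and 10.62, then 10.50 and 10.77 in the same groups. KAO (LOC4339885), which takes the product of D35, was at 8.77 and 7.98 in wild type, 7.45 and 7.58 in overexpression, and 7.56 and 7.24 in RNAi. For KS1 and KAO, as for the brighter D35 probe set, both wild-type arrays lay above all 4 transgenic arrays. CPS1 and the dimmer D35 probe set did not have this pattern. Of all kept probe sets, 24.4% were lower without overlap in overexpression than in wild type, and 20.9% in RNAi than in wild type. The share with both was not counted. None of these differences passed; the smallest limma adjusted p among the 3 genes was 0.351, for KAO between RNAi and wild type with the trend (log2 change -0.98), and it was 0.522 without.

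Later gibberellin steps were measured by 3 genes. SD1 (LOC4325003), the gibberellin 20-oxidase behind semi-dwarf rice, stood at 6.82 and 6.80 in wild type, 7.07 and 6.34 in overexpression, and 7.93 and 7.85 in RNAi. RNAi was above both other groups without overlap, but the log2 change against wild type, 1.08 ± 0.31, did not pass (limma adjusted p = 0.437, and 0.328 with the trend). Between overexpression and RNAi the SD1 change was -1.19 ± 0.31 and did not pass either (limma adjusted p = 0.2255, and 0.1365 with the trend). Of all kept probe sets, 19.9% were higher without overlap in RNAi than in wild type, and 29.2% were lower in overexpression than in RNAi. EUI1 (LOC4339131), an enzyme that inactivates gibberellins, and GA20OX3 (LOC4342505), another 20-oxidase, had trend-fit adjusted p values of 0.411 or more and 0.712 or more in the 3 comparisons. The log2 changes of EUI1 were -1.13 ± 0.53 (overexpression against wild type), -0.14 ± 0.53 (RNAi against wild type) and -0.99 ± 0.53 (overexpression against RNAi). With D35 left aside, the list of synthesis and inactivation held 8 genes, of which 6 had a probe set and passed the filter. In overexpression against wild type 0 of 6 were called, 5 were negative and the median log2 change was -0.32 (-0.08 over all kept probe sets). In RNAi against wild type 0 were called and 4 were negative (median -0.20, against 0.00 over all), and between overexpression and RNAi 0 were called and 4 were negative (median -0.13, against -0.09).

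Of 5 gibberellin signalling genes, 0 were called in any comparison by either fit. The receptor gene GID1, the DELLA repressor gene SLR1, GAMYB and SPY had log2 changes within 0.36 of 0 in every comparison in their brightest probe sets. A second, dimmer GID1 probe set averaged 3.95 in wild type, 5.38 in overexpression and 4.52 in RNAi. Its log2 changes were 1.42 ± 0.59 (overexpression against wild type), 0.57 ± 0.59 (RNAi against wild type) and 0.85 ± 0.59 (overexpression against RNAi). None passed (smallest limma adjusted p = 0.553, without the trend, for the last). SLRL1, an SLR1-like gene, stood at 3.98 and 4.75 in wild type, 7.34 and 6.50 in overexpression, and 4.81 and 5.76 in RNAi, and did not pass (smallest limma adjusted p = 0.252, with the trend, between overexpression and RNAi). Its log2 changes were 2.55 ± 0.53 (overexpression against wild type), 0.92 ± 0.53 (RNAi against wild type) and 1.64 ± 0.53 (overexpression against RNAi). For the first, limma adjusted p was 0.359 without the trend and 0.290 with it.

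Among the defence-branch genes, 2 besides CYP701A8 passed the threshold. CPS2 (LOC9266189), which feeds it, was at 8.75 and 7.83 in wild type, 6.17 and 6.18 in overexpression, and 9.72 and 10.69 in RNAi. It was lower in overexpression than in RNAi with a log2 change of -4.03 ± 0.48, a call in the trend fit (limma adjusted p = 0.0026) and not without it (0.0776). Without the trend it did pass under 2 other filters, a mean log2 of 5 or more (limma adjusted p = 0.0380) and log2 6 or more on 2 arrays (0.0334). CPS2 passed in the trend fit whichever of the 6 arrays was left out (adjusted p from 0.0019 to 0.0415). Against wild type it did not pass, with log2 changes of -2.11 in overexpression and 1.92 in RNAi (limma adjusted p = 0.127 and 0.117 with the trend). CYP71Z6 (LOC4329725), a P450 that hydroxylates diterpenes and lies in a gene cluster with CPS2, was at 9.47 and 8.19 in wild type, 6.38 and 8.16 in overexpression, and 10.01 and 11.09 in RNAi. Between overexpression and RNAi its log2 change of -3.28 ± 0.83 passed with the trend (limma adjusted p = 0.0355) and not without (0.214). Leaving out either wild-type array (trend-fit adjusted p = 0.0642 and 0.0622), overexpression replicate 1 (0.214) or RNAi replicate 2 (0.158) ended that call.

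The diterpene synthases that supply the substrates of defence P450s did not share a single pattern, and most had group means under a log2 value of 6. CPS4, of the branch towards momilactones, averaged 5.31, 3.97 and 4.87 in wild type, overexpression and RNAi. KSL5 averaged 7.76, 4.87 and 7.90, with overexpression replicates at 3.19 and 6.55. KSL10, which makes the oryzalexin precursor that CYP701A8 can hydroxylate, averaged 5.01 in wild type, 5.56 in overexpression and 2.44 in RNAi, an order that differs from that of CYP701A8. KSL7, of phytocassane synthesis, averaged 5.97, 3.53 and 4.68 in its brighter probe set and 2.68, 4.96 and 3.23 in the other, which went the opposite way. KSL4 did not pass the filter. None of these synthases passed in any comparison (smallest limma adjusted p = 0.156, with the trend, for KSL5 between overexpression and RNAi).

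The phytoalexin list, without CYP701A8, held 16 genes, of which 15 had a probe set and 14 passed the filter. Between overexpression and RNAi the trend fit called 2 of 14 lower (CPS2 and CYP71Z6) and 0 higher, 9 were negative, and the median log2 change was -1.01, against -0.09 over all kept probe sets. In overexpression against wild type 0 were called, 11 of 14 were negative and the median was -0.98, against -0.08 over all. In RNAi against wild type 0 were called, 7 were negative, and the median was -0.14, against 0.00 over all. These medians were taken on the values as deposited, with several genes under a log2 value of 5 in some groups. The order of CYP701A8 (overexpression, wild type, RNAi, without overlap) was found in 3 of 14 genes, CPS2, CYP71Z6 and CYP99A3, and the opposite order in 0. Over all kept probe sets these orders were found in 4.71% and 4.42%. With 14 genes at such shares, a count of 0 in the opposite order says little. The list was chosen with earlier results of these data known, so the 3 genes in the order of CYP701A8 are not independent support. CYP99A3, a P450 of momilactone synthesis, is named here for that order after its values were seen: 7.19 and 7.08 in wild type, 5.60 and 6.63 in overexpression, and 7.83 and 8.27 in RNAi. It just missed the threshold between overexpression and RNAi (log2 change -1.94, limma adjusted p = 0.0517 with the trend).

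**Figure D4:**
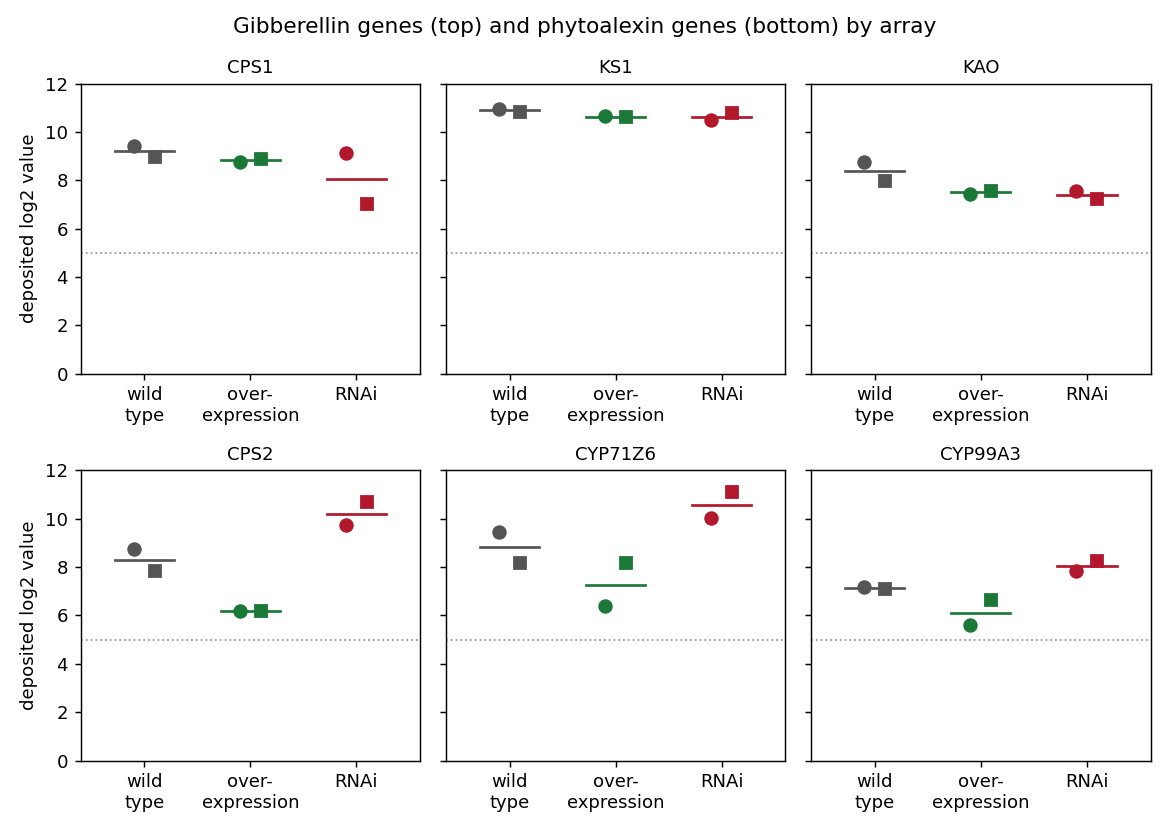
Deposited log2 values (vertical axis) by group (horizontal axis) of 3 gibberellin synthesis genes (top) and 3 phytoalexin genes (bottom), with a circle for replicate 1, a square for replicate 2, a bar for the mean and a dotted line at log2 5. In the bottom panels overexpression is lowest and RNAi highest, as for CYP701A8, and the top panels do not show that order. The phytoalexin genes plotted are the 3 of 14 that have it without overlap, as do 4.71% of all kept probe sets.

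**Figure D5:**
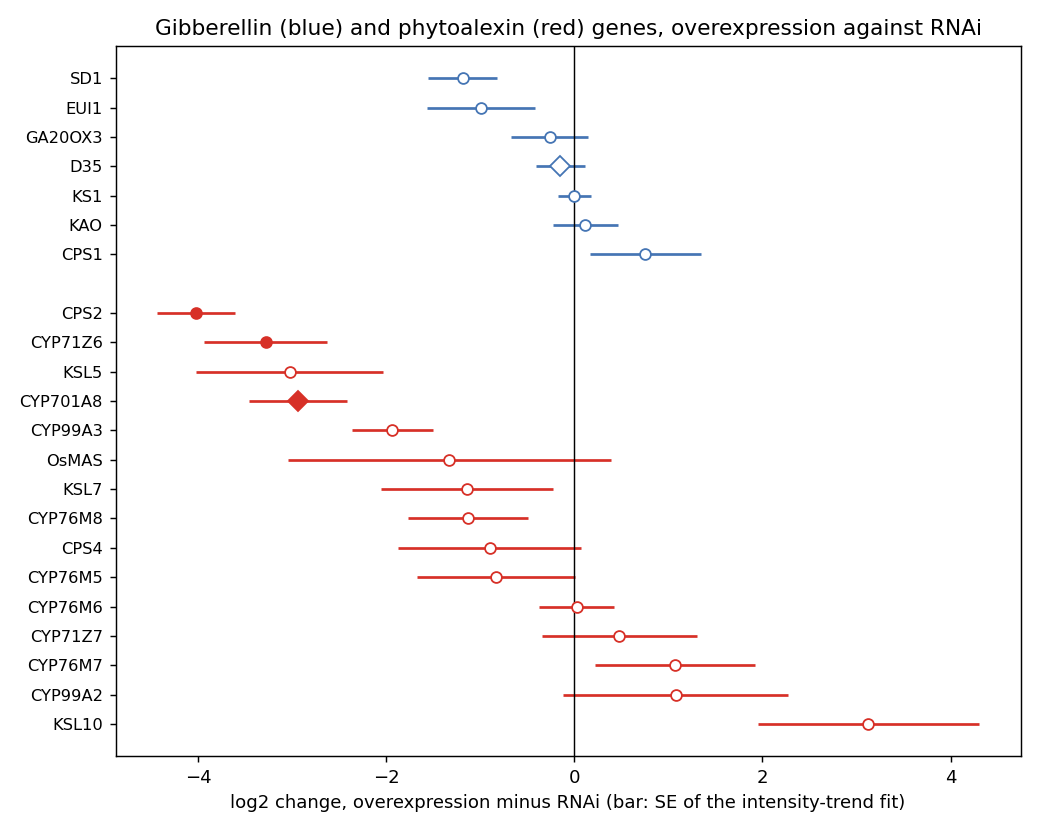
Log2 change between overexpression and RNAi (horizontal axis, negative where overexpression is lower) of gibberellin synthesis and inactivation genes (blue) and phytoalexin genes (red), with the SE of the intensity-trend fit; diamonds are D35 and CYP701A8, and filled symbols passed that fit. The 3 filled symbols are CPS2 (-4.03), CYP71Z6 (-3.28) and CYP701A8 (-2.94), and KSL10 lies farthest on the other side (3.13).

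The plastid pathway that supplies precursors to both branches was measured by 6 genes, and 0 were called in any comparison. ISPG, the enzyme of its penultimate step, was at 14.36 and 14.56 in wild type, 14.20 and 14.21 in overexpression, and 14.67 and 15.05 in RNAi. Its log2 change between overexpression and RNAi, -0.65 ± 0.24, had the smallest p of the list (limma adjusted p = 0.0844 with the trend). ISPG and ISPF, 2 of the 6, had the same order of groups without overlap as CYP701A8, an order found in 4.71% of all kept probe sets. Their log2 changes against wild type were small: -0.26 in overexpression and 0.40 in RNAi for ISPG, and -0.32 and 0.31 for ISPF. Like CYP99A3 they are named for that order after their values were seen.

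The genes most like each member over the 6 arrays were taken from 2314 genes with a name, by Pearson correlation, as a description without a test. For CYP701A8 they were OsP5CS2 (r = 0.991), a proline synthesis gene, GPI-B (0.988), a glucose phosphate isomerase, CKX4 (0.986), a cytokinin oxidase, Rictpi2 (0.986), a triose phosphate isomerase, and MRS2-A (0.985), of a magnesium transporter family. For the brighter D35 probe set they were ILL5 (r = 0.970), APX1 (0.964), an ascorbate peroxidase, H2B.10 (0.953), a histone, GLUP4 (0.933) and OsTPP7 (0.933), a trehalose phosphate phosphatase. Some varied little: ILL5 ran from 10.89 to 11.06, APX1 from 12.17 to 12.48 and GLUP4 from 9.72 to 10.18. H2B.10 ran from 10.25 to 11.09 and OsTPP7 from 10.85 to 11.94. In the CYP701A8 list Rictpi2 had the narrowest range (14.63 to 15.07) and CKX4 the widest (9.91 to 12.19). A correlation over 0.9 was reached by 114 of the 2314 genes for CYP701A8 and by 14 for D35. The points share their arrays and fall into 3 groups of 2.

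The seedling label was checked against marker genes. Green leaf genes (6 of 7 measured, among them RCA and CAB2R) were bright on all arrays except RBCS1, at 3.97 to 5.78, with a log2 of their summed level of 17.39 to 17.58 in wild type, 17.27 to 17.38 in overexpression and 17.44 to 17.56 in RNAi. Secondary wall cellulose synthases (CESA4, CESA7 and CESA9, 3 of 3 measured) had summed levels of 12.80 to 13.04 in wild type, 13.18 to 13.94 in overexpression and 7.55 to 9.85 in RNAi, so that they moved between overexpression and RNAi in the direction opposite to CYP701A8. Their log2 changes between overexpression and RNAi were 4.62, 5.43 and 4.46 (limma adjusted p = 0.0021, 0.0215 and 0.0107 with the trend, and 0.0794, 0.184 and 0.135 without). In RNAi against wild type these changes were -4.09, -4.68 and -3.82. There only CESA4 passed, and only with the trend (limma adjusted p = 0.0120, 0.0959 and 0.0554 with it, and 0.195, 0.402 and 0.320 without). In overexpression against wild type they were 0.53, 0.76 and 0.65, and none passed. Root markers (3 of 4 measured, 1 under log2 5 on all arrays) summed to 9.42 to 9.84, 9.01 to 10.15 and 9.56 to 9.84 in the 3 groups, and shoot meristem markers (2 of 3 measured) to 5.70 to 5.93, 5.32 to 6.19 and 5.27 to 5.68. The part of tissue make-up in the CYP701A8 difference was not tested, and in seedling RNA fewer cells of a type and less RNA per cell cannot be told apart.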

How the data were processed

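The authors deposited log2 expression values, 57381 probe sets by 6 arrays, used here as deposited; per the labels, biotin-labelled cRNA was made from 6 µg of total RNA. RMA is named, with no version, in the submitters' processing notes. The values hold 331 to 618 exact zeros per array, unlike usual RMA output, so the summary step is open, and they carry no detection calls. Array medians were 5.67 to 5.92, and replicates correlated at r = 0.905 to 0.906 across probe sets. With 187 control probe sets left out, 40466 of 57194 passed the filter (log2 5 or more on at least 2 arrays). Of the 57194, 22436 map to 1 gene, 95 to several and 34663 to no listed gene.

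Each comparison was a contrast in 1 limma 3.58.1 model (R 4.3.3) of the 3 group means, two-sided, with p-values adjusted by Benjamini-Hochberg across the 40466 kept probe sets (threshold 0.05), without and, as an alternative, with an intensity trend (3 residual degrees of freedom, plus prior degrees of freedom of 1.53 and 4.70). The fit was tested on simulated data. Lists were described by counts and medians, with the brightest probe set of each gene, and got no set test. List genes were matched by symbol or synonym in the RefSeq table. The members and lists were chosen with earlier results of these data known.

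Named genes were the members, the list genes that make a substrate or use a product of a kaurene oxidase, list genes past the threshold, and the 5 genes most correlated with each member; later gibberellin, signalling, supply and marker genes, CYP701A9 and CYP99A3 were named after their values were seen. Alternatives were other filters and scalings, only the 4 arrays compared, a replicate block, averaged probe sets and leaving out each array.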

Additional observations from a re-analysis of the deposited data

How the results depend on the processing

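CYP701A8 kept its direction in all 3 comparisons under every alternative, and crossed the threshold only between overexpression and RNAi and only with the intensity trend: adjusted p = 0.0232 (log2 change -2.94), 0.0232 after quantile normalisation (-3.03) and 0.0361 with a replicate block (-2.94), the last 2 chosen after seeing the data. Leaving out 1 array, its log2 change ranged from -1.83 to -0.87 (overexpression against wild type), from 0.87 to 2.31 (RNAi against wild type) and from -3.66 to -2.22 (overexpression against RNAi). D35 passed in no setting. The sign of the dimmer D35 probe set turned between RNAi and wild type with quantile normalisation (0.0504, also with the trend) and centred medians (0.0437). Leaving out 1 array it ranged from -0.41 to 0.14, from -0.20 to 0.12 and from -0.37 to 0.18 in the 3 comparisons (0.0718 without wild-type replicate 2 in the second and 0.0624 without RNAi replicate 1 in the third), and the brighter one from -0.94 to -0.46, from -0.79 to -0.31 and from -0.32 to 0.0225. D35 minus CYP701A8 ranged between overexpression and wild type from -0.0727 to 1.37, between RNAi and wild type from -3.03 to -1.25 and between overexpression and RNAi from 1.90 to 3.68.

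Replicate numbers did not pair the arrays (correlations of replicate differences 0.04, -0.03 and -0.01), and without the trend the replicate block gave CYP701A8 an adjusted p of 0.278 between overexpression and RNAi. With the trend, the block ended the call of CYP71Z6 in that comparison (adjusted p = 0.0523) and left CPS2 called (0.0064). Over the whole array, calls for the 3 comparisons in order were 0, 1 and 5 in the main setting, 144, 313 and 1725 with the trend, 0, 0 and 0 without a filter, with only the 4 arrays compared, with the replicate block and whichever array was left out, 1, 18 and 449 with a filter on the mean, 16, 20 and 593 at log2 6, and 0, 1 and 11 after quantile normalisation or 0, 1 and 8 with centred medians. With the trend and an array left out they ranged from 0 to 223, 16 to 716 and 276 to 1830. With 2 arrays a group and replicates as far apart as those of CYP701A8, only large differences could pass, and a missed threshold does not show equal levels.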
